A study of Mus musculus with 23 samples.

Results

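The circadian clock genes described here were 10 genes of the mouse count table, namely Per1, Per2, Per3, Cry1, Cry2, Clock, Nr1d1, Nr1d2, Dbp and Tef. They were taken by gene name, 10 of 56748 genes in all, as core genes and outputs of a process that the paper names. The paper lists circadian rhythm among the pathways enriched in its own comparisons of these tumors, so the choice was not independent of the data. Read counts came from 23 melanoma tumors, each grown under the skin of the flank of a DBA/2J mouse aged 6 to 8 weeks from implanted B16-F1 cells, a transplantable mouse melanoma line that came from another strain. All mice were kept under 12 h of light and 12 h of dark. The drugs were pentoxifylline (PTX), a methylxanthine that inhibits phosphodiesterases, and norcantharidin (NCTD), a demethylated analog of cantharidin that inhibits protein phosphatases. In the intraperitoneal (IP) arm, CONTROL_IP mice received saline solution, PTX_IP mice PTX at 60 mg/kg, NCTD_IP mice NCTD at 3 mg/kg, and MIX_IP mice both drugs at these doses, with 2 tumors in each group. In the intratumoral (IT) arm, CONTROL_IT mice received DMSO in 4 tumors, PTX_IT mice PTX at 60 mg/kg in 3, NCTD_IT mice NCTD at 3 mg/kg in 4, and MIX_IT mice both drugs in 4. The 2 arms had different vehicles, so route, vehicle and any difference in batch between the arms cannot be told apart. The time of day at which tumors were collected is not given in the sources used here, and each mouse gave 1 tumor at 1 time, so no rhythm could be measured.

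The mammalian clock is a feedback loop of transcription. CLOCK pairs with BMAL1 and binds E-box sequences in the promoters of the Per and Cry genes, whose proteins then gather, enter the nucleus and block that pair. A second loop runs through the nuclear receptors REV-ERB alpha and REV-ERB beta, encoded by Nr1d1 and Nr1d2, which repress Bmal1 through sites that the ROR receptors also use. Dbp and Tef encode PAR bZIP factors, which carry the rhythm to other genes and act on D-box sequences, among them those of Per genes. Clocks of this kind run in nearly all tissues, and Per1 and Per2 also answer directly to glucocorticoids and to cyclic AMP.

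The promoter sequences of 7 windows are shown because they hold the E-box, E'-box and D-box letters through which these genes are known to be linked. They come from RefSeq on GRCm38.p6, a build other than the GRCm39 of the count table, and each window runs from 250 bases before to 50 bases after a start site, printed 5′ to 3′ on the strand of the gene. Windows were found for 9 of the 10 genes, 13 in all, and Per2 had none. Capitals mark an E-box (CACGTG), an E'-box (CACGTT, or AACGTG where it lies on the other strand) or a D-box (TTATGTAA or TTACGTAA). The windows are Per1 at chr11:69098699-69098998, Per3 at chr4:151044616-151044915, Cry1 at chr10:85185005-85185304, Cry2 at chr2:92434020-92434319, Nr1d1 at chr11:98775328-98775627, and Tef at chr15:81802423-81802722 and chr15:81811164-81811463. Those of Per1 and Tef read the plus strand, and those of Per3, Cry1, Cry2 and Nr1d1 the minus strand.
Per1: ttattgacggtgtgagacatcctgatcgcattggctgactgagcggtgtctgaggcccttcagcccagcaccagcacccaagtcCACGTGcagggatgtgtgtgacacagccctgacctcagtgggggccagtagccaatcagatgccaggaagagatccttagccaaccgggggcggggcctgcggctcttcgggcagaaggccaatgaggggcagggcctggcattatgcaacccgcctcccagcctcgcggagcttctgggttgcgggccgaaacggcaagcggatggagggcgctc
Per3: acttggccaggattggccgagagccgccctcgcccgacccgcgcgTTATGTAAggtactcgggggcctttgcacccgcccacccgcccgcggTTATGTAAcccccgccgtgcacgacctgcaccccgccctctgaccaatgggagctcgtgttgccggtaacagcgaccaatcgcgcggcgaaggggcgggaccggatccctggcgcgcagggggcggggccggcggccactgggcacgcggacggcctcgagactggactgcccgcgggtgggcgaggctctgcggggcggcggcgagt
Cry1: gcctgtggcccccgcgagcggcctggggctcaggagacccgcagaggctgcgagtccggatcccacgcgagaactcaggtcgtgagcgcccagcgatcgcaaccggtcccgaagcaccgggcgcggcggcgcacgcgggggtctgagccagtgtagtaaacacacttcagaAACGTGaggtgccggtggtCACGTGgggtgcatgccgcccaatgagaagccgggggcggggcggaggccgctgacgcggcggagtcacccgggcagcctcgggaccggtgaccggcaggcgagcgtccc
Cry2: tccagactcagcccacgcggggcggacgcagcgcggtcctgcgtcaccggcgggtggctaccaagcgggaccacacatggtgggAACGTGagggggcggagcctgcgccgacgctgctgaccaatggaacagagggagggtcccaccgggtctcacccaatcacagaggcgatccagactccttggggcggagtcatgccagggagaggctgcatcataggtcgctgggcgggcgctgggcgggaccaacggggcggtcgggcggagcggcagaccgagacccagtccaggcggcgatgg
Nr1d1: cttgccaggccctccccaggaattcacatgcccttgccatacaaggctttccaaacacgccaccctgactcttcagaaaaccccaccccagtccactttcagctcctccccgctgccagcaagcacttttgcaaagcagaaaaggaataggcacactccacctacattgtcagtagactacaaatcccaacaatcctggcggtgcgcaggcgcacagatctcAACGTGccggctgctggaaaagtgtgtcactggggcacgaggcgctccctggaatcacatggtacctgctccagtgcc
Tef, first window: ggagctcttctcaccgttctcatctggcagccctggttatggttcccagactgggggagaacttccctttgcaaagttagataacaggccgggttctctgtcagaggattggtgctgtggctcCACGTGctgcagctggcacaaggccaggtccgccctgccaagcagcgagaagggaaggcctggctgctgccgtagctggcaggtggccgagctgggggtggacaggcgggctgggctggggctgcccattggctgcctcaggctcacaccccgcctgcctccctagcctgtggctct
Tef, second window: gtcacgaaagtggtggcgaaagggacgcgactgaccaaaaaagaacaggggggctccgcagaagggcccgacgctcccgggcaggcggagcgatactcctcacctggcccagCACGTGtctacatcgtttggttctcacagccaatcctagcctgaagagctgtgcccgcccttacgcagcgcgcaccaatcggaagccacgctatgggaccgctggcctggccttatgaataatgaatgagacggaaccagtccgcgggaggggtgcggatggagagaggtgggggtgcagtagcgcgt

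The E-box was found in the first of 2 windows of Per1, at 166 bases before the start site, in the window of Cry1 at 60 bases, and in both windows of Tef at 127 and 138 bases. Of all 32851 promoter windows searched on both strands, 7.15% held an E-box. The E'-box was found in Cry1 at 79 bases before the start site, in Cry2 at 166 bases and in Nr1d1 at 28 bases, against 4.68% of all windows. The Per3 window held 2 D-box matches, at 205 and 158 bases before the start site, and 1.06% of all windows held at least 1. No window of these genes held the cyclic AMP response element TGACGTCA, which 1.79% of all windows held. The half-site AGGTCA, which ROR and REV-ERB receptors read, was found in 1 window each of Per1, Clock and Nr1d2, against 16.3% of all windows. These are matches of letters only, and no match says only that the letters are not in that window.

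**Figure D1:**
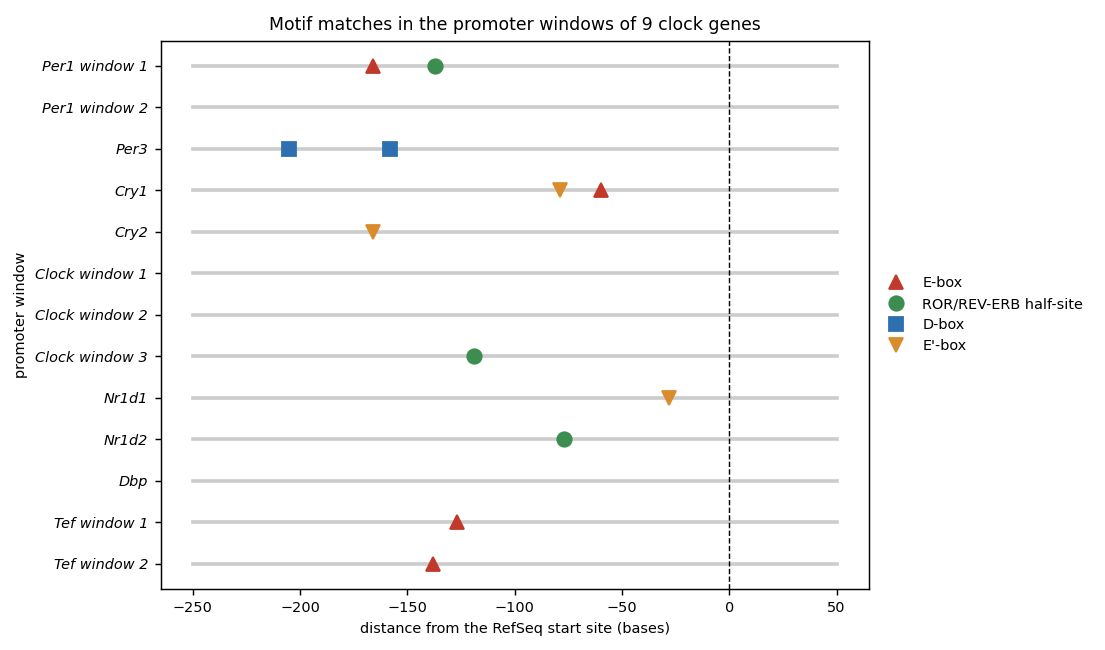
Motif matches by distance from the RefSeq start site in bases, with 1 gray line for each of 13 promoter windows of 9 clock genes and a dashed line at the start site. E-box matches lie in Per1, Cry1 and both Tef windows, and the 2 D-box matches lie in Per3.

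Library depth was 2861578 to 6702374 counts per tumor, so that 3 counts, the lowest level taken as measurable, stood for 0.448 to 1.05 CPM, the count of a gene scaled to a fixed library total. The 6 melanoma markers Pmel, Mlana, Dct, Tyr, Mitf and Sox10 summed to 13030 to 33430 CPM in all 23 tumors, as the labelled tumor type implies. The labels give no sex, and the methods describe treatment groups as sex-matched. Xist, which female cells express, stood at 5.13 to 13.4 CPM in NCTD_IT and 1.30 to 11.4 CPM in PTX_IT, but at 0 to 0.572 CPM in CONTROL_IT and at 0 in the 4 MIX_IT tumors. Ddx3y, a Y-linked gene, was at 1.03 to 8.995 CPM in CONTROL_IT and 6.82 to 15.4 CPM in MIX_IT, and at most 0.285 CPM in NCTD_IT and PTX_IT. Mouse sex and drug therefore cannot be told apart for NCTD_IT or PTX_IT against CONTROL_IT, whereas MIX_IT and CONTROL_IT did not differ in these genes' pattern. Among the IP tumors, 1 CONTROL_IP tumor held Xist, at 8.295 CPM. One MIX_IT tumor, replicate 23, stood apart, with 6 fibroblast markers (Col1a1, Col1a2, Col3a1, Dcn, Lum and Pdgfra) summing to 8460 CPM, and MIX_IT results are also given without it where it moved them.

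Over the 23 tumors, the clock genes differed widely in how many reads they gave. Nr1d2 had 5997 reads in total, Tef 5230, Clock 3377, Per1 1028, Cry1 853, Per3 852, Cry2 345, Per2 152, Dbp 49 and Nr1d1 19. Per kilobase of listed gene length, the order was Nr1d2 at 1109 reads, Tef at 664.8, Cry1 at 255.4, Clock at 246, Per1 at 182.6, Per3 at 88.7, Cry2 at 54.6, Per2 at 26.0, Dbp at 16.4 and Nr1d1 at 6.18. The library kit reads the 3′ ends of transcripts, where reads need not grow with length, so this second order is a rough one. The REV-ERB paralogs lay at its opposite ends, and so, nearly, did the PAR bZIP relatives Tef and Dbp. Of the 10 genes, 8 passed the filter on low counts in the IT arm and in all 23 tumors together, and 7 passed in the IP arm, where Per2 also failed. Nr1d1 and Dbp passed in neither arm and entered no test.

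**Figure D2:**
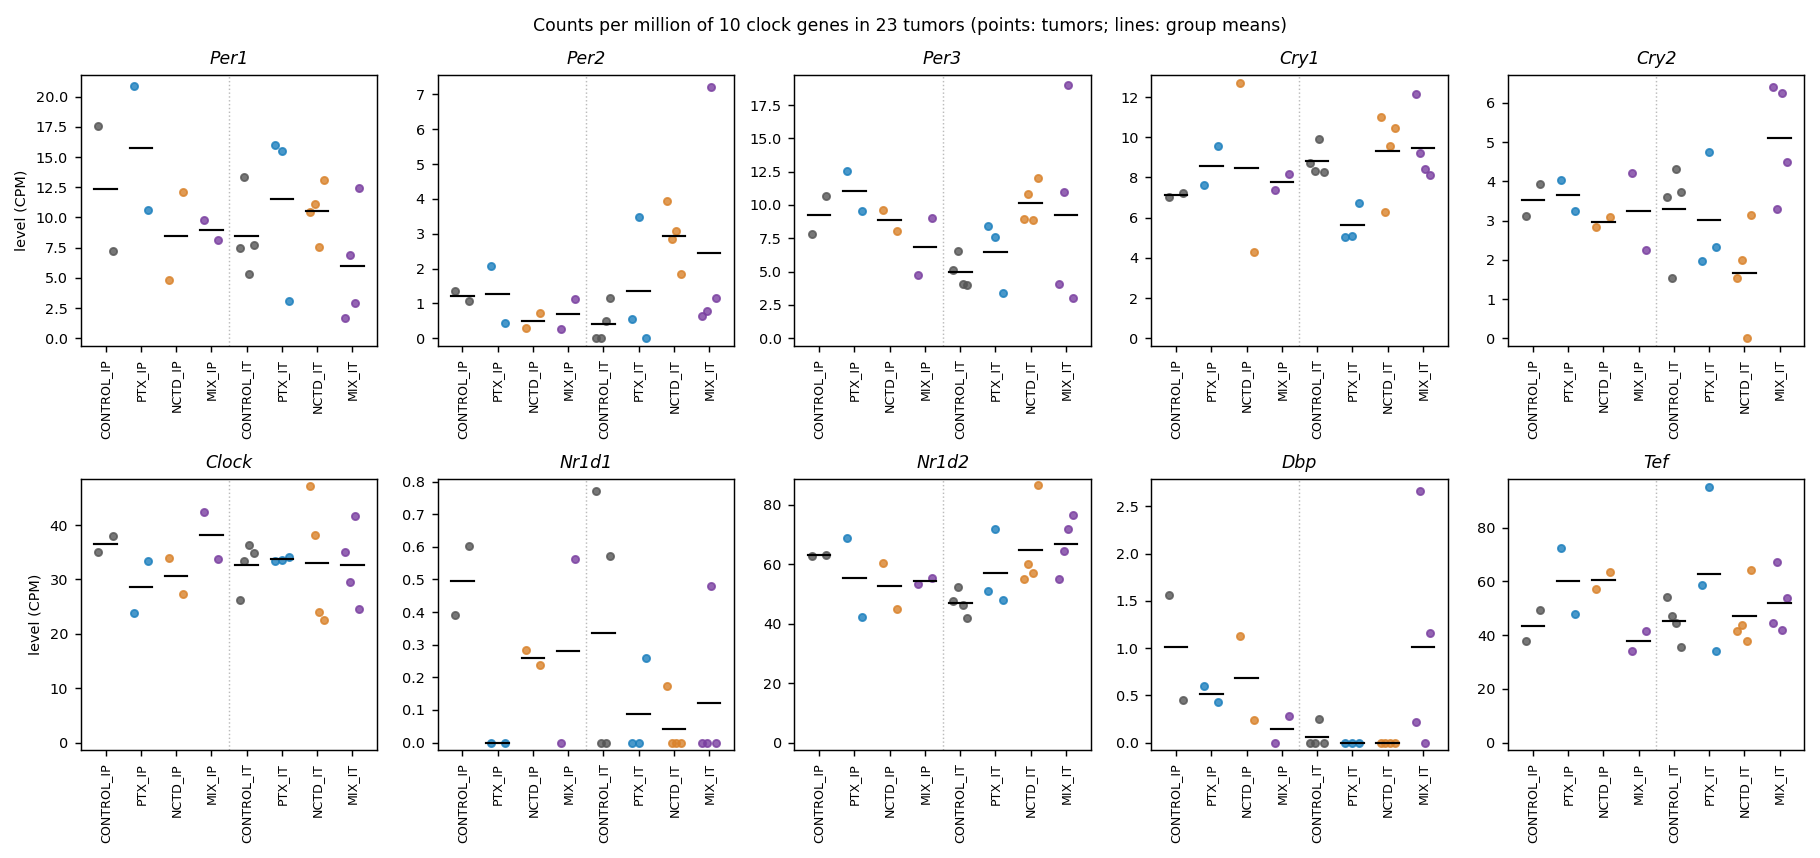
Level in CPM (vertical axis, linear, one panel a gene) of 10 clock genes in 23 tumors by group, with points for tumors, lines for group means and a dotted line between the IP and IT arms. Per2 reached 7.21 CPM in 1 MIX_IT tumor, and Nr1d1 and Dbp were at 0 in many tumors.

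Per1 (chr11 68986043 to 69000786, plus strand, in GRCm39 as are all gene positions below) encodes a PERIOD protein of the repressive arm. Its level was 7.44, 13.4, 5.33 and 7.72 CPM in CONTROL_IT, 15.97, 15.5 and 3.11 CPM in PTX_IT, 10.5, 11.1, 7.52 and 13.1 CPM in NCTD_IT, and 1.71, 6.88, 2.89 and 12.5 CPM in MIX_IT. In the IP arm it was 17.6 and 7.24 CPM in CONTROL_IP, 20.9 and 10.6 CPM in PTX_IP, 4.80 and 12.1 CPM in NCTD_IP, and 9.75 and 8.17 CPM in MIX_IP. Tumors of a single group thus differed several-fold, and each drug group overlapped its control. Ordered by group mean, from PTX_IP at 15.8 ± 7.25 CPM (SD, n = 2) down to MIX_IT at 5.99 ± 4.86 CPM (SD, n = 4), every group overlapped the next one in the order.

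Per2 (chr1 91343704 to 91387046, minus strand), a second PERIOD gene, was near the limit of measurement, with 3 or more counts in 15 of 23 tumors. In CONTROL_IT it gave 0, 0, 2 and 4 reads, or 0, 0, 0.507 and 1.14 CPM, and in NCTD_IT 23, 10, 9 and 7 reads, or 3.95, 2.85, 3.08 and 1.83 CPM. All 4 NCTD_IT tumors lay above all 4 control tumors. MIX_IT tumors gave 0.640, 0.782, 7.21 and 1.16 CPM from 3, 5, 30 and 7 reads, so 30 of the 45 reads of that group came from replicate 23. The 3 PTX_IT tumors gave 2, 11 and 0 reads, spanning the controls and NCTD_IT. In the IP arm, group means ran from 0.498 ± 0.304 CPM (SD, n = 2) in NCTD_IP to 1.26 ± 1.17 CPM (SD, n = 2) in PTX_IP. The fitted Per2 level of NCTD_IT was 2.85 ± 1.19 (SE) above CONTROL_IT on the log2 scale, with an adjusted p of 0.177 in edgeR's quasi-likelihood test. That of MIX_IT was 2.54 ± 1.18 (SE) above it, with an adjusted p of 0.378 in the same edgeR test. Without replicate 23, this difference was 1.09 ± 1.13 (SE), with an adjusted p of 0.843 in edgeR.

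Per3 (chr4 151088109 to 151129122, minus strand) is the PERIOD gene whose window held the D-boxes shown above. CONTROL_IT tumors held 5.13, 6.58, 4.06 and 4.00 CPM and NCTD_IT tumors 8.94, 10.8, 8.89 and 12.0 CPM, with no overlap between the groups. MIX_IT tumors lay at 4.05, 10.95, 18.99 and 2.99 CPM, the highest again being replicate 23, and overlapped the controls, as did PTX_IT tumors at 8.41, 7.61 and 3.37 CPM. The log2 difference of MIX_IT from CONTROL_IT was 0.90 ± 0.50 (SE), and 0.28 ± 0.45 (SE) without replicate 23. IP group means ran from 6.88 ± 3.02 CPM (SD, n = 2) in MIX_IP to 11.04 ± 2.11 CPM (SD, n = 2) in PTX_IP, so CONTROL_IT, at 4.94 ± 1.21 CPM (SD, n = 4), was the lowest of the 8 groups. Per3 was 1.06 ± 0.50 (SE) higher in NCTD_IT than in CONTROL_IT on the log2 scale, with an adjusted p of 0.230 in edgeR's test.

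Cry1 (chr10 84967564 to 85020928, minus strand) encodes a CRYPTOCHROME, the partner of the PERIOD proteins. It was at 8.73, 8.34, 9.89 and 8.29 CPM in CONTROL_IT, 11, 6.27, 9.58 and 10.5 CPM in NCTD_IT and 12.2, 9.23, 8.41 and 8.15 CPM in MIX_IT. The 3 PTX_IT tumors held 5.04, 5.07 and 6.73 CPM, below every CONTROL_IT and every MIX_IT tumor, and overlapped NCTD_IT. Against CONTROL_IT, the log2 difference of PTX_IT was -0.64 ± 0.31 (SE), with an adjusted p of 0.790 in edgeR. Cry1 was 0.75 ± 0.31 (SE) higher in NCTD_IT than in PTX_IT on the log2 scale, with an adjusted p of 0.999 in edgeR. MIX_IT was also 0.75 ± 0.31 (SE) above PTX_IT, with an adjusted p of 0.982 in edgeR. IP group means lay between 7.13 ± 0.154 CPM (SD, n = 2) in CONTROL_IP and 8.58 ± 1.37 CPM (SD, n = 2) in PTX_IP. The 2 NCTD_IP tumors held 12.7 and 4.28 CPM, the highest and the lowest Cry1 levels of all 23 tumors.

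Cry2 (chr2 92233991 to 92264388, minus strand), the second CRYPTOCHROME, was lower than Cry1 in all 8 group means. NCTD_IT tumors held 1.55, 1.99, 0 and 3.14 CPM and MIX_IT tumors 6.401, 3.28, 6.25 and 4.49 CPM, with no overlap between these groups, while both overlapped CONTROL_IT at 3.59, 1.54, 4.31 and 3.72 CPM. The tumor at 0, replicate 19, could have held up to 1.05 CPM by the limit that a count of 0 allows. MIX_IT stood 1.55 ± 0.66 (SE) above NCTD_IT on the log2 scale, with an adjusted p of 0.803 in edgeR. In the IP arm the 8 tumors lay between 2.25 and 4.22 CPM.

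Clock (chr5 76357715 to 76452639, minus strand), the activator partner of BMAL1, was the most even of the 10 genes across groups. Its group means ran from 28.6 ± 6.75 CPM (SD, n = 2) in PTX_IP to 38.1 ± 6.11 CPM (SD, n = 2) in MIX_IP, a ratio of 1.33. PTX_IT tumors held 33.4, 33.6 and 34.2 CPM, whereas NCTD_IT tumors spread over 47.3, 38.2, 23.9 and 22.5 CPM around nearly the same mean. The log2 differences from CONTROL_IT were 0.05 ± 0.26 (SE) in PTX_IT, 0.05 ± 0.24 (SE) in NCTD_IT and 0.01 ± 0.24 (SE) in MIX_IT.

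Nr1d2 (chr14 4230569 to 4265642, plus strand), which encodes REV-ERB beta, was the most abundant clock gene and, in the IT arm, the one with the smallest standard errors. CONTROL_IT tumors held 47.5, 52.4, 46.4 and 41.75 CPM, NCTD_IT tumors 55.0, 60.1, 57.1 and 86.4 CPM, MIX_IT tumors 54.8, 64.4, 71.6 and 76.5 CPM, and PTX_IT tumors 51.0, 71.7 and 47.9 CPM. Every NCTD_IT and MIX_IT tumor lay above every CONTROL_IT tumor, whereas PTX_IT overlapped them. NCTD_IT was 0.49 ± 0.19 (SE) above CONTROL_IT on the log2 scale, 1.40-fold, with an adjusted p of 0.149 in edgeR. MIX_IT was 0.51 ± 0.19 (SE) above CONTROL_IT, 1.43-fold, with an adjusted p of 0.264 in edgeR. Without NCTD_IT replicate 20, the highest tumor, the NCTD_IT difference was 0.33 ± 0.18 (SE), with an adjusted p of 0.332 in edgeR, and without MIX_IT replicate 23 the MIX_IT difference was 0.47 ± 0.20 (SE), with an adjusted p of 0.551 in edgeR. The IP tumors held 62.8 and 63.0 CPM in CONTROL_IP, 68.6 and 42.3 CPM in PTX_IP, 60.4 and 44.9 CPM in NCTD_IP, and 53.3 and 55.2 CPM in MIX_IP. There the controls were the highest group by mean, and in the IT arm they were the lowest.

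Nr1d1 (chr11 98658758 to 98666159, minus strand), which encodes REV-ERB alpha and is in many tissues the more strongly rhythmic paralog, gave a read in 10 of 23 tumors and at most 4 reads in any. It reached 3 counts in 2 tumors, 1 of CONTROL_IP at 0.603 CPM and 1 of CONTROL_IT at 0.770 CPM. Differences in Nr1d1 were not detectable at this depth. In the GENCODE annotation of GRCm39, 297 of the last 500 exonic bases of Nr1d1 also belong to Thra, which lies on the opposite strand and had 3534 reads. The strand setting of the counting is not given in the sources used here, so reads of this stretch cannot be assigned with certainty, and its part in the low count was not tested.

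Dbp (chr7 45354512 to 45359627, plus strand), the PAR bZIP gene best known as a direct CLOCK target, gave 49 reads in all. A read was seen in 7 of 8 IP tumors and in 4 of 15 IT tumors. The highest counts were 17 and 7 reads in 2 MIX_IT tumors, replicates 22 and 24, at 2.66 and 1.16 CPM, and 8 reads in a CONTROL_IP tumor, at 1.56 CPM. The 3 PTX_IT and 4 NCTD_IT tumors had none, which allows up to 0.768 to 0.958 CPM per PTX_IT tumor and 0.525 to 1.05 CPM per NCTD_IT tumor. CONTROL_IT was as low, with 1 read in replicate 11, at 0.254 CPM, and none in its other tumors. All of the last 500 exonic bases of Dbp also belong to Sphk2 on the opposite strand, which had 1620 reads, and the part of this overlap in the low count was not tested.

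Tef (chr15 81686622 to 81711064, plus strand), the other PAR bZIP gene and the one with an E-box in both windows, was nearly as abundant as Nr1d2. It was at 54.2, 46.95, 44.6 and 35.5 CPM in CONTROL_IT, 58.6, 95.1 and 34.2 CPM in PTX_IT, 41.6, 43.9, 38.0 and 64.4 CPM in NCTD_IT, and 44.6, 67.4, 41.8 and 53.9 CPM in MIX_IT. These 4 groups overlapped. In the IP arm it was at 37.6 and 49.3 CPM in CONTROL_IP, 72.5 and 47.7 CPM in PTX_IP, 57.3 and 63.45 CPM in NCTD_IP, and 34.0 and 41.7 CPM in MIX_IP. Tumors given either drug alone by this route thus had the highest means and those given both the lowest, but the log2 difference was 0.48 ± 0.25 (SE) for each single drug, with an adjusted p of 0.906 for PTX_IP and an adjusted p of 0.999 for NCTD_IP in edgeR.

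To compare each treatment with its control, all genes that passed the filter in an arm were fitted together, and the clock genes were then read from that fit. In the IT arm no clock gene passed an adjusted p of 0.05 against CONTROL_IT. This held for NCTD_IT, where 1.37% of the 12480 genes tested passed, and for PTX_IT and MIX_IT, where 0% passed. At an unadjusted p below 0.05, 3 of 8 clock genes were counted in NCTD_IT (Nr1d2, Per2 and Per3, all higher) where 21.6% of all genes were and 11.6% were higher, 0 of 8 in PTX_IT against 6.35%, and 2 of 8 in MIX_IT (Nr1d2 and Per2, both higher) against 13% of all genes, with 7.88% higher. These counts did not hold up to leaving out single tumors. In NCTD_IT the count was 2 of 8 without CONTROL_IT replicates 10 or 11 or NCTD_IT replicates 18 or 19, and 1 of 8 without any of the other 4 tumors. In MIX_IT it was 1 of 8 without CONTROL_IT replicates 9, 10 or 11 or MIX_IT replicate 23, and 3 of 8 without MIX_IT replicates 21 or 24. DESeq2 called 1 clock gene in NCTD_IT, Per2, at a log2 difference of 2.94 with an adjusted p of 0.0408. It was run on the groups compared alone and without that filter, and it called 1380 genes there, against 171 of 12480 in edgeR. When edgeR was fitted to those groups alone, it called 946 genes, and Per2 failed the filter. With the Xist level added to the model, the NCTD_IT differences turned to -0.12 ± 0.41 (SE) for Nr1d2, -0.35 ± 1.16 (SE) for Per3 and -0.64 ± 2.50 (SE) for Per2. Xist did not overlap between these groups. Groups did not overlap for 3 of 8 clock genes in NCTD_IT against 16.9% of all genes, for 1 of 8 (Cry1) in PTX_IT against 7.92%, and for 1 of 8 (Nr1d2) in MIX_IT against 9.95%.

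The median log2 difference of the 8 tested clock genes was 0.23 in NCTD_IT, 0.33 in PTX_IT and 0.36 in MIX_IT, beside 0.03, 0.02 and 0.01 over all genes tested. In NCTD_IT, 7 of 8 were above 0, the exception being Cry2 at -0.91 ± 0.67 (SE). In MIX_IT, 7 of 8 were above 0 as well, and the exception was Per1 at -0.48 ± 0.55 (SE). Without replicate 23, 6 of 8 were above 0, and their median was 0.28. In PTX_IT, 6 of 8 were above 0, with Cry1 and Cry2 below. The 3 comparisons share the CONTROL_IT tumors, in which Per2, Per3 and Nr1d2 each had their lowest group mean of the 8 groups.

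**Figure D3:**
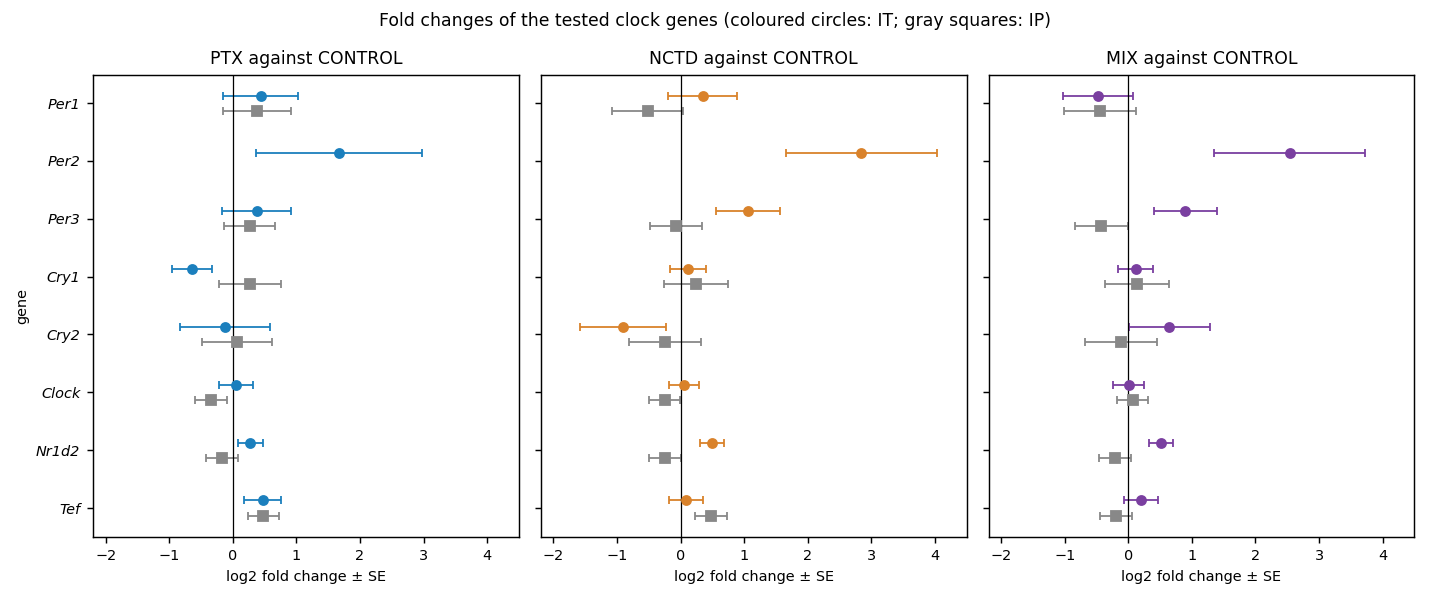
Log2 fold change with its standard error (horizontal axis) of 8 clock genes in each treatment against the control of its arm, with coloured circles for IT and gray squares for IP tumors. Per2, tested in the IT arm alone, has the widest error bars, and Nr1d2 is above 0 in the 3 IT comparisons and below 0 in the 3 IP comparisons.

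Markers of other cell types also differed between the IT groups. At an unadjusted p below 0.05, 11.6% of all genes were higher in NCTD_IT and 7.88% in MIX_IT than in CONTROL_IT. The 5 endothelial markers Pecam1, Cdh5, Kdr, Emcn and Egfl7 summed to 40.8 to 69.2 CPM in CONTROL_IT, 63.2 to 89.1 in PTX_IT, 81.1 to 156 in NCTD_IT and 67.3 to 232 in MIX_IT, and 5 of 5 in NCTD_IT and 3 of 5 in MIX_IT were higher than in CONTROL_IT at an unadjusted p below 0.05. Fibroblast markers summed to 105 to 365 CPM in CONTROL_IT, 251 to 803 in PTX_IT, 370 to 1606 in NCTD_IT and 486 to 8460 in MIX_IT, with 4 of 5 tested markers higher in NCTD_IT and 5 of 5 in MIX_IT at that threshold. Of these, Lum was at 0 in at least 1 tumor of CONTROL_IT, PTX_IT and NCTD_IT and Pdgfra in at least 1 of CONTROL_IT, while no endothelial marker was at 0 in any of these groups. In NCTD_IT, 2 of 6 macrophage markers and 2 of 5 markers of T and NK cells were also higher and 3 of 4 erythroid markers lower at that threshold. For PTX_IT these counts were 2 of 6, 1 of 5 and 0 of 4, where 6.35% of all genes passed in either direction. For MIX_IT they were 1 of 6, 0 of 5 and 0 of 4. Macrophage markers summed to 194 to 781 CPM in CONTROL_IT and 417 to 979 CPM in NCTD_IT, T and NK cell markers to 0.77 to 36.2 CPM and 8.55 to 114 CPM, and erythroid markers to 1240 to 6922 CPM and 255 to 1319 CPM. Cd3e, Cd3d, Cd8a and Trac were at 0 in at least 1 CONTROL_IT tumor, and Cd3e in at least 1 NCTD_IT tumor. Melanoma markers summed to 22860 to 28730 CPM in CONTROL_IT, 16410 to 23300 in NCTD_IT and 13030 to 25300 in MIX_IT. In each of these drug groups, 2 of the 6 were lower at an unadjusted p below 0.05. Counted in either direction, 21.6% of all genes passed that threshold in NCTD_IT and 13% in MIX_IT. In NCTD_IT, 1 melanoma marker (lower, adjusted p of 0.0363 in edgeR) and 1 endothelial marker (higher, 0.0414) also passed the adjusted threshold, beside 1.37% of all genes. Malat1, a nuclear RNA, was at 76.8 to 97.5 CPM in CONTROL_IT, 74.9 to 418 in PTX_IT, 276 to 672 in NCTD_IT and 155 to 493 in MIX_IT, and reads of the mitochondrial genome made up 2.42% to 2.68%, 2.97% to 3.86%, 2.47% to 6.32% and 3.57% to 5.73% of these libraries. The part of these in the higher Nr1d2, Per2 and Per3 levels was not tested, and in bulk tumors fewer cells of a type and less RNA per cell cannot be told apart.

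Between the drug groups of the IT arm, no clock gene passed the adjusted threshold, where 0% of all genes passed in NCTD_IT against PTX_IT and MIX_IT against PTX_IT and 0.00801% in MIX_IT against NCTD_IT. At the unadjusted threshold, Cry1 was counted in NCTD_IT against PTX_IT (3.87% of all genes) and in MIX_IT against PTX_IT (3.75% of all genes), and Cry2 in MIX_IT against NCTD_IT (6.02% of all genes). The first 2 of these share the 3 PTX_IT tumors. These counts did not hold up to leaving out single tumors. Cry1 in NCTD_IT against PTX_IT was lost without PTX_IT replicates 13 or 15 or NCTD_IT replicates 17 or 20. Cry1 in MIX_IT against PTX_IT was lost without PTX_IT replicates 13 or 15 or MIX_IT replicate 21. Cry2 in MIX_IT against NCTD_IT was lost without NCTD_IT replicates 17 or 19 or MIX_IT replicates 21 or 23. Groups did not overlap for 1 of 8 clock genes in each comparison, namely Per3 in NCTD_IT against PTX_IT (4.5% of all genes), Cry2 in MIX_IT against NCTD_IT (2.96% of all genes) and Cry1 in MIX_IT against PTX_IT (4.04% of all genes). In a test of any difference among the 4 IT groups, 0 of 8 clock genes passed either threshold, where 0.024% of all genes passed the adjusted and 12.9% the unadjusted one. Xist and Ddx3y separated MIX_IT from both single-drug groups, so that mouse sex and drug cannot be told apart in either comparison with MIX_IT, but not NCTD_IT from PTX_IT.

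In the IP arm, 0 of 7 tested clock genes passed either threshold in NCTD_IP, PTX_IP or MIX_IP against CONTROL_IP. There, 0% of 12424 genes passed the adjusted threshold, and 3.59%, 5.3% and 2.94% passed the unadjusted one. The smallest unadjusted p of a clock gene in these 3 comparisons was 0.0847, for Tef in PTX_IP. With 2 tumors in a group, groups without overlap are common, and 4 of 7 clock genes in NCTD_IP, 2 of 7 in PTX_IP and 2 of 7 in MIX_IP had none, beside 34.1%, 32% and 35.9% of all genes. When the 8 tumors were fitted with PTX and NCTD as 2 factors, 0 of 7 clock genes were counted for either drug at an unadjusted p below 0.05, where 2.96% of all genes were for PTX and 2.56% for NCTD. In a test of any difference among the 4 IP groups, 0 of 7 passed either threshold, where 0% of all genes passed the adjusted and 3.27% the unadjusted one.

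Whether a drug's difference from control itself differed between the arms was tested in all 23 tumors. No clock gene passed the adjusted threshold for any of the drugs, and 0% of 13395 genes did. At the unadjusted threshold, Nr1d2 was counted for NCTD, where its log2 difference from control was 0.74 ± 0.33 (SE) greater in the IT than in the IP arm, with an adjusted p of 0.430 in edgeR, beside 10.8% of all genes. For MIX, that of Nr1d2 was also 0.74 ± 0.33 (SE) greater, with an adjusted p of 0.632 in edgeR, beside 7.44% of all genes. Per2 was counted for NCTD at 4.05 ± 1.93 (SE), with an adjusted p of 0.457 in edgeR, on IP groups of 4 and 14 reads. For PTX, 0 of 8 were counted, beside 5.23% of all genes. Xist and Ddx3y were both counted for NCTD and for PTX, and neither for MIX. Mouse sex and drug thus cannot be told apart in this test for NCTD or PTX. After the Xist level was added to the model, the Nr1d2 value was 0.32 ± 0.51 (SE) for NCTD and 0.62 ± 0.34 (SE) for MIX. That of Per2 for NCTD was then 2.599 ± 2.805 (SE). With the drug in the model, 0 of 8 clock genes differed between IT and IP tumors at either threshold, where 0.366% of genes passed the adjusted and 13.5% the unadjusted one. The widest interval belonged to Per2, at 0.57 ± 0.74 (SE) on the log2 scale, and the narrowest to Nr1d2, at 0.05 ± 0.13 (SE).

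The rest of the clock machinery was represented by 21 further genes, of which 17 were tested in the IT arm and 16 in the IP arm. None of them passed the adjusted threshold in a comparison with controls. In NCTD_IT, 2 of 17 were counted at the unadjusted threshold, both higher, beside 21.6% of all genes. In PTX_IT 1 of 17 was counted, lower, beside 6.35% of all genes, and in MIX_IT 4 of 17, 2 higher and 2 lower, beside 13% of all genes. The median log2 difference of the 17 was 0.10 in NCTD_IT, -0.03 in PTX_IT and -0.01 in MIX_IT.

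Rora encodes a ROR receptor that competes with the REV-ERB proteins for their sites and activates Bmal1. It was at 47.7, 74.6, 62.6 and 51.5 CPM in CONTROL_IT and at 34.1, 51.0, 17.3 and 34.6 CPM in MIX_IT, where the highest MIX_IT tumor lay above the lowest control and the other 3 lay below all controls. The log2 difference was -0.78 ± 0.25 (SE), with an adjusted p of 0.203 in edgeR, and -0.57 ± 0.20 (SE) without replicate 23, the lowest tumor, with an adjusted p of 0.472 in edgeR. Nfil3, a bZIP repressor that binds the same D-boxes as Dbp and Tef, was at 7.19, 12.9, 8.37 and 9.72 CPM in CONTROL_IT, 2.52, 1.27 and 5.70 CPM in PTX_IT and 2.77, 4.85, 5.29 and 2.66 CPM in MIX_IT, without overlap of either drug group with the controls. Its log2 difference was -1.57 ± 0.61 (SE) in PTX_IT, with an adjusted p of 0.785 in edgeR, and -1.29 ± 0.53 (SE) in MIX_IT, with an adjusted p of 0.319 in edgeR.

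Csnk1e encodes a kinase that phosphorylates PERIOD proteins. It was at 23.6, 15.4, 23.1 and 20.02 CPM in CONTROL_IT, 35.6, 25.4, 28.7 and 25.9 CPM in NCTD_IT and 32.01, 25.96, 45.4 and 22.8 CPM in MIX_IT, so that NCTD_IT did not overlap the controls and MIX_IT overlapped them in its lowest tumor. Its log2 difference was 0.53 ± 0.23 (SE) in NCTD_IT, with an adjusted p of 0.194 in edgeR, and 0.63 ± 0.23 (SE) in MIX_IT, with an adjusted p of 0.263 in edgeR, or 0.39 without MIX_IT replicate 23. The BMAL1 gene, listed as Arntl, was at 8.29 to 10.3 CPM in CONTROL_IT and at 3.99 to 9.38 CPM in MIX_IT, a log2 difference of -0.52 ± 0.39 (SE) with an adjusted p of 0.612 in edgeR. In the IP arm, Bhlhe40, an E-box repressor, was the 1 gene of 16 counted in MIX_IP, beside 2.94% of all genes. Its log2 difference was 0.46 ± 0.18 (SE), with an adjusted p of 0.999 in edgeR. None was counted in PTX_IP or NCTD_IP, beside 5.3% and 3.59% of all genes.

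**Figure D4:**
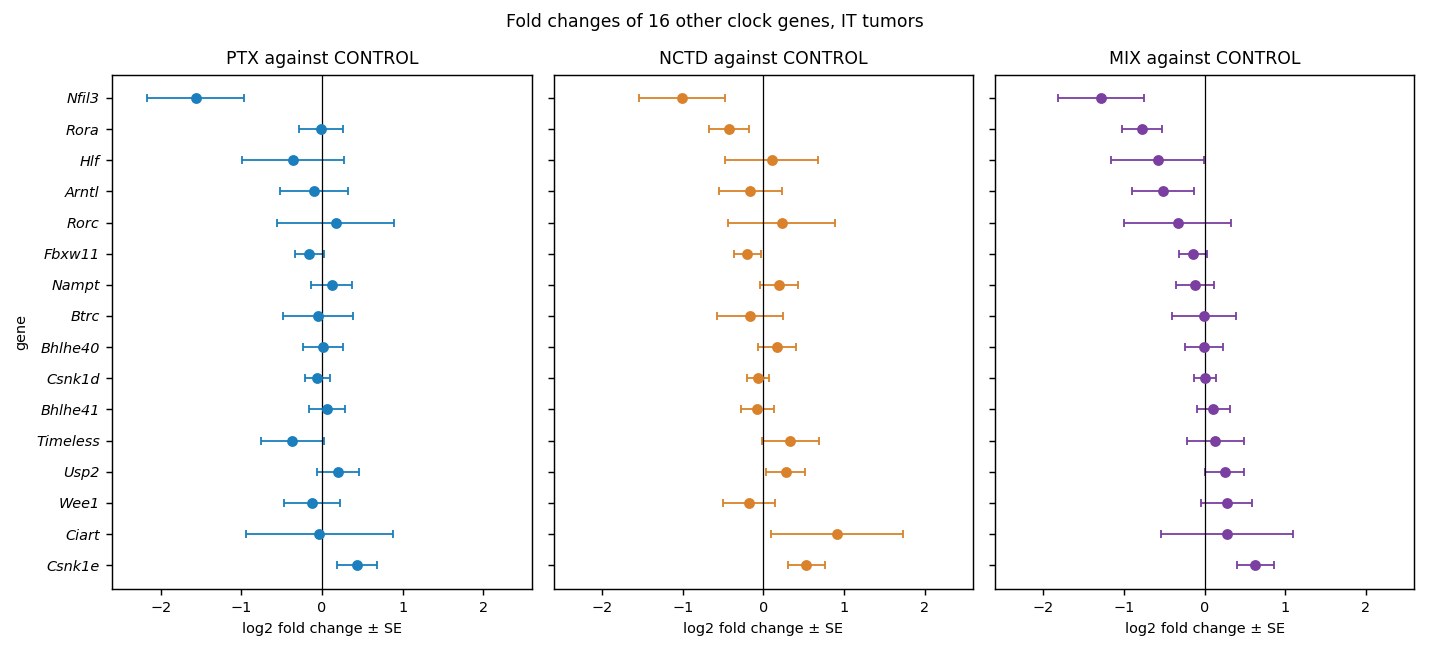
Log2 fold change with its standard error (horizontal axis) of 16 other clock genes in IT tumors given PTX, NCTD or both, each against CONTROL_IT. Nfil3 lies farthest to the left in all 3 panels, and Csnk1e is to the right of 0 in all 3.

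Since Per1 and Per2 are known to answer to glucocorticoids and to cyclic AMP, genes of both responses were read from the same fits. Of 5 tested glucocorticoid-responsive genes, 0 passed the adjusted threshold in any IT drug group. Sgk1, a kinase of this response, was at 3.08, 10.5, 4.06 and 5.15 CPM in CONTROL_IT and at 20.97, 26.8, 14.7 and 20.4 CPM in NCTD_IT, without overlap, a log2 difference of 1.88 ± 0.51 (SE) with an adjusted p of 0.0614 in edgeR. It was at 16.5, 20.6 and 9.32 CPM in PTX_IT and 13.7, 12.04, 41.8 and 7.15 CPM in MIX_IT, overlapping the controls in both. These log2 differences were 1.42 ± 0.54 (SE) in PTX_IT, with an adjusted p of 0.785 in edgeR, and 1.69 ± 0.51 (SE) in MIX_IT, with an adjusted p of 0.194 in edgeR, or 0.92 without MIX_IT replicate 23. At the unadjusted threshold, 2 of the 5 were counted in NCTD_IT (Sgk1 and Tsc22d3), 1 in PTX_IT and 1 in MIX_IT (Sgk1 in both), all higher. The shares of all genes counted in these comparisons were 21.6%, 6.35% and 13%. Of 8 immediate early and cyclic AMP-responsive genes, 1 passed in NCTD_IT, Ier2, an early response gene, at 0.83 ± 0.20 (SE) with an adjusted p of 0.0487 in edgeR, beside 1.37% of all genes, and 0 passed in PTX_IT or MIX_IT. The Ier2 call was lost without any 1 of the 4 CONTROL_IT tumors and without NCTD_IT replicates 17, 18 or 19, where edgeR's adjusted p ran from 0.0643 to 0.157, and kept without replicate 20, at 0.0297. At the unadjusted threshold, 3 of the 8 were counted in NCTD_IT, all higher, beside 21.6% of all genes. They were Ier2, Junb, an AP-1 subunit, at 1.30 ± 0.36 (SE) with an adjusted p of 0.0618 in edgeR, and Dusp1, a phosphatase of MAP kinases, at 1.69 ± 0.42 (SE) with an adjusted p of 0.0542 in edgeR. In MIX_IT 0 of the 8 were counted, beside 13% of all genes. In PTX_IT 1 was, Dusp1, at 0.94 ± 0.44 (SE) with an adjusted p of 0.786 in edgeR, beside 6.35% of all genes. Per1, in the same PTX_IT tumors, was 0.44 ± 0.59 (SE) above CONTROL_IT, with an adjusted p of 0.912 in edgeR.

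The 8 tested genes were also compared with each other over the 23 tumors, after each group's mean was removed. Of 28 pairs, 0 had an adjusted p below 0.05 and 4 an unadjusted p below 0.05 in an exact permutation test within groups. Among all pairs, 19 correlations were positive and 9 negative, from -0.56 to 0.67. The points share libraries, and in each pair both genes share the depth and cell makeup of a tumor.

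Nr1d2 and Tef, the most abundant pair, correlated at Pearson's r = 0.67, with an exact permutation p of 0.0125 (adjusted 0.175), and at Spearman's rho = 0.64, with p = 0.0138 (adjusted 0.194) in the same exact test. Within the arms, r was 0.73 in IT and 0.58 in IP tumors, with an exact p of 0.0171 in IT tumors. In IP tumors the exact p was well above 0.125, the smallest that 8 IP tumors allow. The IP arm alone thus gave no evidence of this correlation. Without the 2 tumors farthest from the median of the first gene, r was 0.61, with an exact p of 0.0937. Per1 and Cry1 ran in opposite directions, at r = -0.56 with an exact permutation p of 0.00679 (adjusted 0.175) and rho = -0.66 with an exact p of 0.00720 (adjusted 0.194). Their r was -0.56 in IT and -0.73 in IP tumors, with exact p-values of 0.0352 and 0.125, the second being the smallest that 8 IP tumors allow, and -0.57 without the 2 farthest tumors, with an exact p of 0.0124.

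Tef and Per1 correlated at r = 0.58, with an exact permutation p of 0.0488 (adjusted 0.341) and rho = 0.51, with an exact p of 0.0524 (adjusted 0.210), and at 0.51 without the 2 farthest tumors, with an exact p of 0.132. Tef and Clock correlated at r = -0.42, with an exact permutation p of 0.0369 (adjusted 0.341) and rho = -0.53, with an exact p of 0.0268 (adjusted 0.210), and at -0.47 without the 2 farthest tumors, with an exact p of 0.0762. Of the 3 pairs among the PERIOD genes, Per2 and Per3 had the highest r, 0.47, with an exact p of 0.172, while Per1 correlated at 0.20 with Per2 and 0.10 with Per3.

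**Figure D5:**
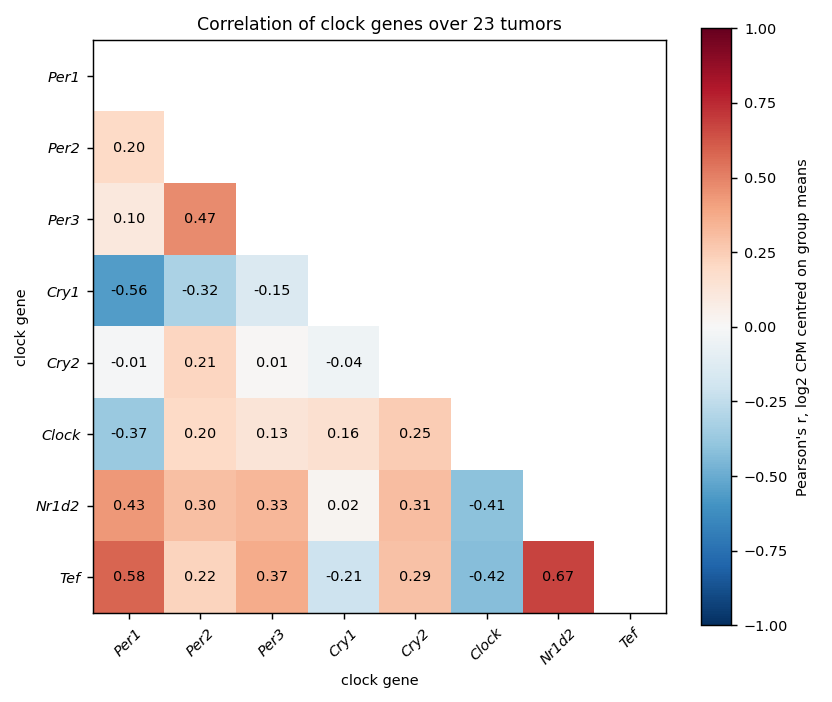
Pearson's r of log2 CPM, centred on group means, for 28 pairs of 8 clock genes over 23 tumors, with the value in each cell and colour running from -1 (blue) to 1 (red). The deepest cells are Nr1d2 with Tef (0.67), Tef with Per1 (0.58) and Per1 with Cry1 (-0.56).

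Among 11704 protein-coding genes, those whose group-centred log2 CPM was most like a clock gene's over the 23 tumors were named, 3 for each. For Per1 they were Tmbim1, Plin2 and Rilpl2, with Pearson's r from 0.90 to 0.83, for Per2 Ubn2, Rab29 and Sat2, from 0.87 to 0.84, and for Per3 Kmt2c, Ddhd1 and Sema3f, from 0.84 to 0.81. For Cry1 they were Cnnm4, Tsnax and Fbxl8, from 0.89 to 0.81, for Cry2 Ogt, Taf13 and Timp1, from 0.80 to 0.78, and for Clock Trdmt1, Cnksr3 and Nipa2, from 0.83 to 0.82. For Nr1d2 they were Wdfy2, Acadsb and Tspyl3, from 0.85 to 0.81, and for Tef Mtarc2, Arhgap15 and Rnf14, from 0.86 to 0.85. The lowest counts of Tspyl3 and Arhgap15 in a tumor were 0, and that of Sema3f was 1. These are the highest of 11704 values for each gene and are given as a description.

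Across the 8 groups, the order of means separated few neighbours. In Per1, Per2, Per3, Cry2, Nr1d2 and Tef, each of 7 groups overlapped the next one down. In Cry1, 5 of 7 did, and PTX_IT lay below CONTROL_IP, which lay below MIX_IP. In Clock, 6 of 7 did, with CONTROL_IP above PTX_IT. The ratio of the highest to the lowest group mean was 7.1 for Per2, 3.06 for Cry2, 2.63 for Per1, 2.23 for Per3, 1.69 for Cry1, 1.65 for Tef, 1.42 for Nr1d2 and 1.33 for Clock.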

How the data were processed

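RNA of 23 tumors was made into 3′ mRNA libraries, which a sequencing company read as paired ends. The deposited table holds raw counts of reads per gene, which the authors made with STAR 2.7.11b on GRCm39 after FastQC and Trimmomatic, per the labels. Strand setting, handling of multimapped reads and molecular identifiers are not given in the sources used here. No column was left out (0 columns of other samples).

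Counts were tested with edgeR 4.0.16 in R 4.3.3 (quasi-likelihood, TMM, filterByExpr with a minimum count of 10 and minimum total of 15), with all groups of an arm in one model, and with Benjamini-Hochberg adjustment over all genes tested. A call was an adjusted p below 0.05. The standard error is the log2 fold change divided by the root of F. CPM values are counts scaled to a fixed total per tumor after TMM, while floors use the totals as deposited, and log2 CPM used a prior count of 2. Floors of 3 counts, and the limits given for a count of 0, cover counting error only. Standard errors come from the edgeR fit and include the spread between tumors. P-values of group tests set a difference against the spread between tumors, and those of correlations rank a value among shuffles within groups. Each sample is 1 tumor with its own number. No pair of tumors in a group agreed within sampling noise. All tests were two-sided.

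Correlations used an exact enumeration of 1327104 shuffles within groups, in place of a planned random draw, because groups hold few tumors. Python 3.11.15, numpy 2.4.6, pandas 2.3.3, scipy 1.17.1 and matplotlib 3.10.9 were used. The code was tested on simulated data. The alternatives were DESeq2 1.42.0, its size factors in edgeR, no filter, protein-coding genes alone, Xist as a covariate, other sets of groups, an adjusted p below 0.1 and leaving out each tumor.

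All 10 clock genes are named with their levels, and with fold changes where the unadjusted p was below 0.05. Values of other members, and those of Arntl, are given beyond that rule and were chosen after they were seen. Genes of the other lists are named where the unadjusted p was below 0.05, apart from 1 that is counted but not reported here, and the 3 protein-coding genes of highest Pearson's r are named for each tested clock gene. Genes and lists were chosen with earlier results of these data known.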

Additional observations from a re-analysis of the deposited data

Results flagged for a closer look

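In 29 groups of 4 tumors checked by gene, 5 held 1 tumor whose gap to the nearest tumor took up more of the group's range than Dixon's 95% limit allows. That limit is set so that chance exceeds it in about 1 in 20 groups, but in 3 of the 5 a single tumor had 1 or 2 reads and the other 3 none, where the gap is the whole range by construction, so the number of such groups says nothing against chance. Per2 stood at 7.21 CPM in MIX_IT replicate 23, from 30 reads, while the other 3 tumors of the group held 0.640 to 1.16 CPM. The same tumor held Nr1d1 at 0.481 CPM, from 2 reads, while the other 3 had none. Nr1d2 stood at 86.4 CPM in NCTD_IT replicate 20, while the other 3 tumors held 55.0 to 60.1 CPM. Nr1d1 at 0.172 CPM in NCTD_IT replicate 17 and Dbp at 0.254 CPM in CONTROL_IT replicate 11 each came from 1 read where the other 3 tumors had none.

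Beside its Per2 level, MIX_IT replicate 23 had the highest summed fibroblast markers of all 23 tumors, 8460 CPM, the highest endothelial markers, 232 CPM, and the lowest melanoma markers, 13030 CPM. The part of these in its Per2 level was not tested.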

How the results depend on the processing

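No clock gene passed the adjusted threshold in any comparison, and this count stayed at 0 in 119 of 120 values under other settings and in all 154 that left out 1 tumor (range 0 to 0). The count of correlated pairs stayed at 0 in all 6 and 23 such values. The exception was DESeq2 in NCTD_IT against CONTROL_IT, which called 1, Per2, and which moved the median of all genes there from 0.03 to 0.14. Genes called in that comparison over the whole table numbered 171, against 1380 by DESeq2, 1190 without the filter on low counts, 989 at an adjusted p below 0.1, 946 with those groups fitted alone, 777 with all 23 tumors in one fit and 0 with Xist as a covariate. With Xist as a covariate, NCTD_IT log2 differences changed sign to -0.12 ± 0.41 (SE) for Nr1d2, -0.35 ± 1.16 (SE) for Per3 and -0.64 ± 2.50 (SE) for Per2. They also became -0.49 for Dusp1 and -0.67 for Tsc22d3 in NCTD_IT, and -0.80 for Dusp1 in PTX_IT. Xist did not overlap between NCTD_IT and CONTROL_IT, so its level and the drug cannot be told apart in that fit. In MIX_IT, Nr1d2 was then 0.58 ± 0.18 (SE) and Per2 3.12 ± 1.21 (SE) above CONTROL_IT. The cause of the changes of sign was not tested. Leaving out 1 tumor reversed none of the 239 fold changes of named genes. It moved Per2 in MIX_IT between 1.09 and 3.68 and Nr1d2 in NCTD_IT between 0.33 and 0.57, and the number of clock genes at an unadjusted p below 0.05 was 1 to 2 in NCTD_IT, 1 to 3 in MIX_IT and 0 to 2 in PTX_IT. Per2 has no value where only the groups compared were used, since it failed the filter there. Depth limits Per2, Nr1d1 and Dbp most. No paired analysis was possible because the groups share no replicate number.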
